A study of Arabidopsis thaliana with 9 samples.

Results

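The 10 genes described here code for proteins of plant cytokinesis in Arabidopsis thaliana: 8 kinesins, the microtubule crosslinker MAP65-3 and the syntaxin KNOLLE. They were chosen by name and taken by locus identifier from 32823 genes in the files: HIK (AT1G18370), TES (AT3G43210), POK1 (AT3G17360), POK2 (AT3G19050), PAKRP1 (AT4G14150), PAKRP1L (AT3G23670), ATK1 (AT4G21270), ATK5 (AT4G05190), MAP65-3 (AT5G51600) and KNOLLE (AT1G08560). These genes, and the other gene lists below, were chosen with earlier results of these data known. All 10 passed the filter for testing, a mean of at least 1 FPKM (fragments scaled by transcript length and by a measure of library size) over the 9 libraries. The libraries were made from mRNA of untreated whole seedlings 2 weeks old, 3 each of wild-type Col-0 and of the mutants cyp71-3 and se-1. The cyclophilin CYP71 is a peptidyl-prolyl isomerase, and SERRATE (SE) helps to process microRNA precursors. The design text asks how mutation of CYP71 affects microRNAs and the mRNAs they target. The labels do not describe the lesion in either allele, and they do not say that the libraries of a genotype came from separate plantings, so each p-value rests on the spread between libraries, which may be technical.

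A dividing plant cell builds its new wall from the inside outwards. The phragmoplast, an array of microtubules facing each other across the midzone, guides Golgi vesicles to the cell plate, and it widens until the plate meets the parental wall. Kinesins of this array organise its midzone, signal for its expansion or mark the place where the plate will attach, MAP65-3 bundles its overlapping microtubule ends, and KNOLLE drives fusion of the vesicles. Many genes of mitosis and cytokinesis are transcribed in G2 and M phase under MYB3R transcription factors, which bind the mitosis-specific activator (MSA) element with the core AACGG.

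Each of the targeted genes was lower in the mutant named for it, CYP71 by more than SE. CYP71 ranged from 16.89 to 19.10 FPKM over the Col-0 libraries and from 3.70 to 4.41 over those of cyp71-3. SE was 31.7 ± 1.37 FPKM (SD, n = 3) in Col-0 and 27.2 ± 1.73 in se-1. That is a difference of -0.21 on the log2(FPKM + 1) scale (limma adjusted p = 0.0052), without overlap between the libraries. The SE transcript level does not by itself check the se-1 label, since the labels do not give the lesion. FPKM sums per library ran from 825338 to 937136, and libraries of a genotype correlated at 0.982 or more. Relative depths were only estimated, from ratios of low FPKM values in short genes. They reached 1.59 times that of the shallowest library, in se-1 replicate 3. The depth in fragments is not known from FPKM values, so no counting interval is given.

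In cyp71-3 every cytokinesis gene rose above Col-0, from 0.36 for TES to 1.55 for HIK on the log2(FPKM + 1) scale, and in se-1 most did not pass the test. All 10 were called higher in cyp71-3 by limma (Benjamini-Hochberg adjusted p under 0.05, two-sided, over 19180 genes), and 5 of them rose by at least 1 on the log2 scale. Their median change was 0.97, against -0.01 over all genes tested. Calls were common among all genes: 63.3% were called in either direction, 30.6% were called higher, and 3.53% were called higher by at least 1. With a pseudocount of 0.1, which shrinks low genes less, 8 of the 10 rose by at least 1, beside 5.29% of all genes. In all 10 the lowest cyp71-3 library lay above the highest Col-0 library, which held in that direction for 34.2% of all genes. Differences on this scale understate the change of genes with low FPKM. In bulk seedling RNA, more dividing cells and more RNA per dividing cell cannot be told apart.

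**Figure D1:**
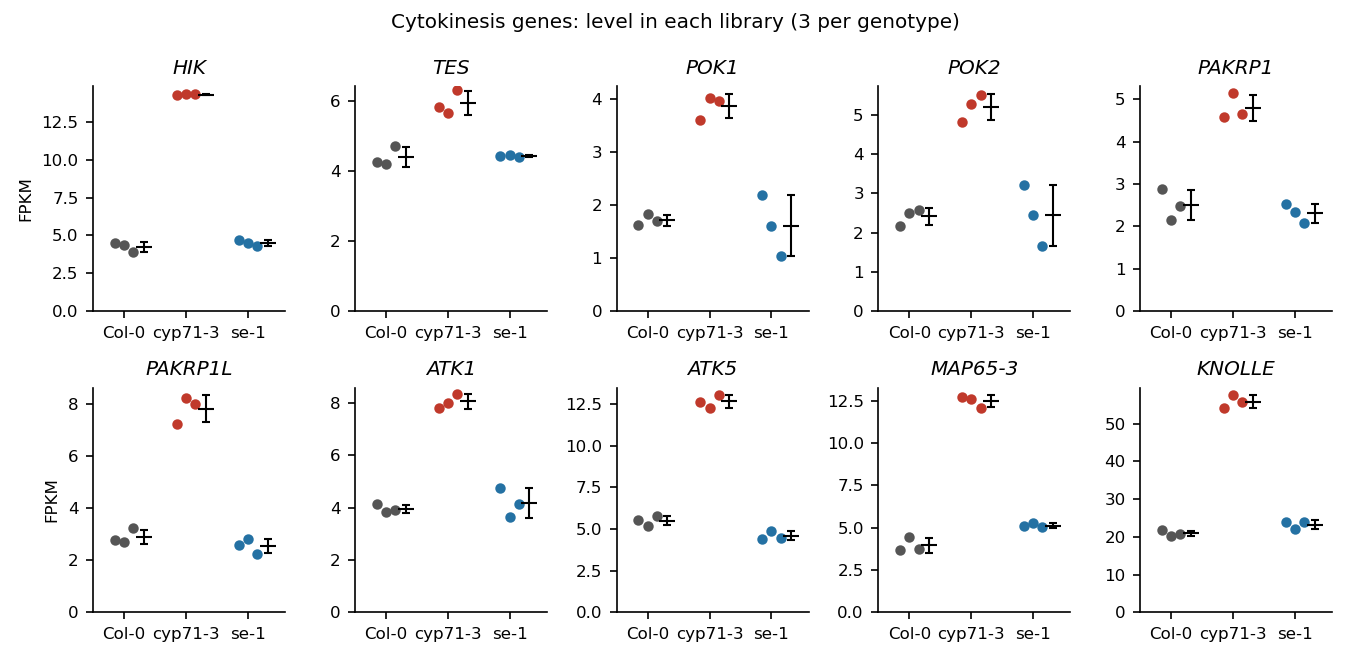
FPKM of each of the 10 cytokinesis genes in every library of Col-0, cyp71-3 and se-1, with 1 point per library. All cyp71-3 points lie above those of Col-0 and se-1, and the se-1 points of most genes lie among those of Col-0.

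The pair of kinesin-7 proteins HIK (HINKEL) and TES (TETRASPORE) start the mitogen-activated protein (MAP) kinase cascade that lets the phragmoplast expand, by activating ANP kinases. HIK serves somatic cytokinesis, and TES is known above all from cytokinesis after male meiosis. HIK lies on chromosome 1 at 6319450 to 6324378, minus strand, with 15 exons, and TES on chromosome 3 at 15190786 to 15196215, plus strand, with 16 exons (TAIR10.1). Their promoters, 250 bases before the RefSeq transcript start in TAIR10.1, are shown because these relatives changed least alike. They cover chr1:6324379-6324628 on the minus strand and chr3:15190536-15190785 on the plus strand. Capitals mark the MSA core AACGG or its reverse complement CCGTT.
HIK: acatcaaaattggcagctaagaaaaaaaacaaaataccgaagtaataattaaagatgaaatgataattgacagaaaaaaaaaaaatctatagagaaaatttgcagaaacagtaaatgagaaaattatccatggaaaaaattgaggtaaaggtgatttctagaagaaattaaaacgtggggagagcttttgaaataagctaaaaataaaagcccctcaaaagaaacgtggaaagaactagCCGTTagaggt
TES: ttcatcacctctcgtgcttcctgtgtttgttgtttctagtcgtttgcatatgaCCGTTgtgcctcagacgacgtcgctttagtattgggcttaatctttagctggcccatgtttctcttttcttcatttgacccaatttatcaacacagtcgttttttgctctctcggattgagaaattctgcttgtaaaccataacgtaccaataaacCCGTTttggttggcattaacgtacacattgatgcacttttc
HIK had 1 core, whose last base lay 7 bases before the start and which was also part of the full MSA consensus. TES had 2 cores, ending 193 and 37 bases before the start, and no full consensus.

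HIK was at 4.47, 4.34 and 3.89 FPKM in Col-0, at 14.27, 14.36 and 14.33 in cyp71-3 and at 4.72, 4.50 and 4.28 in se-1. The cyp71-3 libraries stood apart and close together, and those of se-1 overlapped Col-0. The rise in cyp71-3 was 3.38-fold in mean FPKM, or 1.55 ± 0.07 on the log2 scale (SE, limma adjusted p = 6.89e-09). In se-1 the difference from Col-0 was 0.07 ± 0.07, with a 95% interval of -0.08 to 0.22. TES was at 4.25, 4.20 and 4.72 FPKM in Col-0, at 5.83, 5.66 and 6.31 in cyp71-3 and at 4.41, 4.45 and 4.39 in se-1. It had the smallest rise of the 10 genes in cyp71-3, though without overlap with Col-0. The rise was 1.35-fold in mean FPKM, or 0.36 ± 0.07 on the log2 scale (limma adjusted p = 0.00122), and the se-1 difference of 0.01 had an interval of -0.15 to 0.17.

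Most of the kinases downstream of these kinesins rose in cyp71-3 as well. Of the 5 listed cascade genes, 4 were called higher and 1 lower, with a median of 1.05 on the log2 scale. Over all genes, 30.6% were called higher and 63.3% in either direction. ANP3, a MAP kinase kinase kinase, went from 3.92 ± 0.60 to 10.5 ± 0.34 FPKM (SD, n = 3), and ANP2 from 1.80 ± 0.20 to 4.80 ± 0.18. MKK6, the MAP kinase kinase of the cascade, went from 3.67 ± 0.30 FPKM to 10.4 ± 0.42 (limma adjusted p = 1.45e-07). The exception was MPK4, the last kinase of the cascade, which also acts in immunity: it fell by 0.20 on the log2 scale, from 21.7 ± 0.12 to 18.7 ± 0.89 FPKM. In se-1 only MKK6 of the 5 was called, at 5.35 ± 0.56 FPKM (limma adjusted p = 0.00104), while 50.2% of all genes were called.

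POK1 and POK2 (PHRAGMOPLAST ORIENTING KINESIN) are kinesin-12 proteins of the cortical division zone, which keeps the site where the cell plate will fuse with the parental wall. They are the longest of the 10 genes, with transcripts of 6787 bases for POK1 (chromosome 3, 5935880 to 5946540, plus strand, 34 exons) and 8663 bases for POK2 (chromosome 3, 6577724 to 6590253, plus strand, 37 exons). POK1 was at 1.63, 1.83 and 1.69 FPKM in Col-0, at 3.61, 4.03 and 3.97 in cyp71-3 and at 2.19, 1.61 and 1.03 in se-1. POK2 was at 2.16, 2.50 and 2.57 FPKM in Col-0, at 4.83, 5.28 and 5.50 in cyp71-3 and at 3.21, 2.44 and 1.66 in se-1. In cyp71-3 both lay wholly above Col-0, whereas the se-1 libraries spread widely around the Col-0 level. The rises were 2.25-fold for POK1 (0.84 ± 0.15 on the log2 scale, limma adjusted p = 0.000379) and 2.16-fold for POK2 (0.86 ± 0.14, limma adjusted p = 0.000303).

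The spread in se-1 moved with transcript length across the genome. Among 272 tested genes with transcripts of at least 5000 bases, the median deviation from the se-1 mean was 0.22 in replicate 1, -0.02 in replicate 2 and -0.20 in replicate 3, while in the other 6 libraries it stayed between -0.05 and 0.03. POK1 deviated by 0.31, 0.02 and -0.34 in the same order, and POK2 by 0.32, 0.03 and -0.34. These long genes also had a median of -0.25 in se-1 against Col-0, where genes under 1500 bases had 0.06. The part of this length trend in the POK1 and POK2 values was not tested. Without se-1 replicate 3, the se-1 difference turned from -0.08 to 0.09 for POK1 and from -0.01 to 0.16 for POK2, and neither was called. In cyp71-3 against Col-0, the median of the long genes was -0.01.

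**Figure D2:**
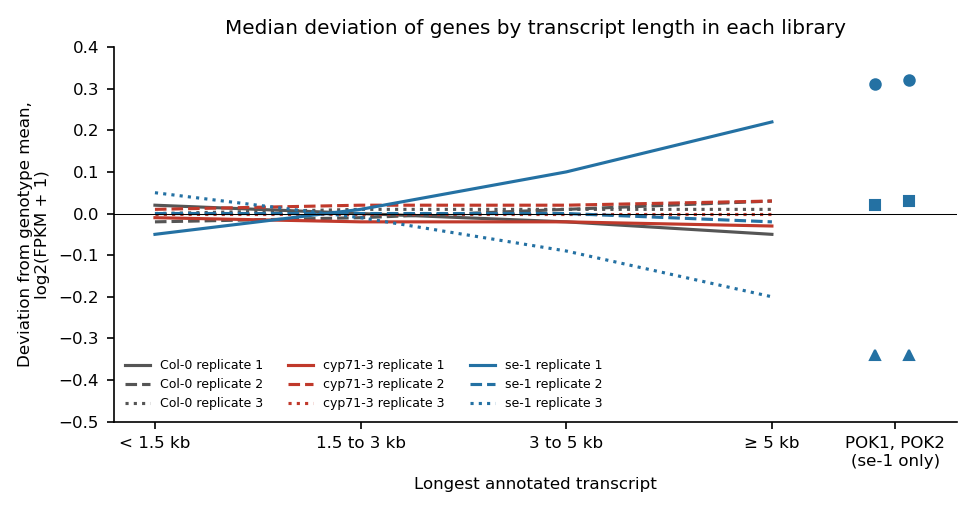
Median deviation of genes from their genotype mean, in log2(FPKM + 1), by longest annotated transcript, with 1 line per library and the POK1 and POK2 values of se-1 at the right (circle, square and triangle for replicates 1, 2 and 3). The se-1 lines fan out with length, to 0.22 in replicate 1 and -0.20 in replicate 3, and the POK1 and POK2 points lie in the same order.

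PAKRP1 and PAKRP1L (also KINESIN-12A and KINESIN-12B) are kinesin-12 proteins of the phragmoplast midzone, where together they keep opposing microtubules in order. PAKRP1 lies on chromosome 4 at 8158436 to 8165214, minus strand, and PAKRP1L on chromosome 3 at 8519136 to 8525289, plus strand, with 16 exons each. The promoter of PAKRP1L, chr3:8518886-8519135 on the plus strand, is shown because it had more MSA cores than any other of the 10. Capitals mark AACGG or CCGTT.
PAKRP1L: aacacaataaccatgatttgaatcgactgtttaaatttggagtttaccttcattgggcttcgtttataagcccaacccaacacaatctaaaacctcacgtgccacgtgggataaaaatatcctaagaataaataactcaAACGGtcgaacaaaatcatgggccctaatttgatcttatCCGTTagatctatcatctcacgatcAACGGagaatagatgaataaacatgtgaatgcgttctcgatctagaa
Its 3 cores ended 107, 68 and 43 bases before the start, and PAKRP1 had 1, at 88 bases.

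PAKRP1 was at 2.87, 2.15 and 2.48 FPKM in Col-0, at 4.59, 5.16 and 4.65 in cyp71-3 and at 2.52, 2.33 and 2.07 in se-1. PAKRP1L was at 2.77, 2.72 and 3.23 FPKM in Col-0, at 7.25, 8.24 and 8.00 in cyp71-3 and at 2.61, 2.81 and 2.26 in se-1. For both genes the cyp71-3 libraries were the 3 highest, and the se-1 and Col-0 libraries overlapped. The rise was 1.92-fold for PAKRP1 (0.73 ± 0.10 on the log2 scale, limma adjusted p = 7.6e-05) and 2.69-fold for PAKRP1L (1.18 ± 0.09, limma adjusted p = 7.3e-07). In se-1 the intervals of the log2 difference were -0.30 to 0.15 for PAKRP1 and -0.34 to 0.07 for PAKRP1L.

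ATK1 and ATK5 are kinesin-14 motors, which walk towards microtubule minus ends and help to gather spindle poles. ATK1 is also known from male meiosis, and ATK5 from the spindle midzone. ATK1 lies on chromosome 4 at 11329319 to 11334168, minus strand, with 17 exons, and ATK5 on chromosome 4 at 2675064 to 2680214, plus strand, with 18 exons. The promoter of ATK5, chr4:2674814-2675063 on the plus strand, is shown as the contrast to those above: it rose more than 2-fold in cyp71-3 and had neither AACGG nor CCGTT in this window, as was so for ATK1 and POK1.
ATK5: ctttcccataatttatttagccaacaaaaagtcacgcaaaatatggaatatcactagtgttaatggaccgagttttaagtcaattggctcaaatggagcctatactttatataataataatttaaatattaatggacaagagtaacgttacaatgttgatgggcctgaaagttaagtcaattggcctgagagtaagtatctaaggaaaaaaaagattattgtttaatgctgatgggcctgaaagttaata
The missing letters say nothing about binding of a factor there or elsewhere.

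ATK1 was at 4.14, 3.83 and 3.91 FPKM in Col-0, at 7.81, 8.02 and 8.36 in cyp71-3 and at 4.75, 3.63 and 4.16 in se-1. ATK5 was at 5.53, 5.20 and 5.77 FPKM in Col-0, at 12.64, 12.26 and 13.05 in cyp71-3 and at 4.43, 4.90 and 4.49 in se-1. Both were highest in cyp71-3, and ATK5 was the only gene of the 10 whose 3 se-1 libraries all lay below those of Col-0. ATK1 rose 2.04-fold in cyp71-3 (0.87 ± 0.09 on the log2 scale, limma adjusted p = 4.98e-06) and ATK5 2.30-fold (1.07 ± 0.07, limma adjusted p = 1.1e-07). In se-1 ATK5 fell by 0.21 ± 0.07 on the log2 scale (limma adjusted p = 0.0204). That call was lost, with adjusted p of 0.0501 to 0.0725, on leaving out Col-0 replicate 1 or 3 or se-1 replicate 1 or 3, and with only the 6 libraries of the comparison (0.0534). ATK5 overlaps AT4G05200, which codes for the receptor-like kinase CRK25, by 492 bases on the opposite strand. Whether the counting used strand is not given in the sources used here, so ATK5 values may hold reads of that gene, whose mean was 4.30 ± 0.64 FPKM for Col-0, 2.77 ± 0.29 for cyp71-3 and 3.47 ± 0.16 for se-1 (SD, n = 3).

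MAP65-3 (PLEIADE) bundles antiparallel microtubules where opposing arrays of the phragmoplast meet, and it is the MAP65 protein most closely tied to cytokinesis. Its gene lies on chromosome 5 at 20960779 to 20964537, minus strand, with 12 exons. The promoter, chr5:20964538-20964787 on the minus strand, is shown because MAP65-3 was the only one of the 3 genes called in se-1 whose call held under each alternative tried. Capitals mark AACGG or CCGTT.
MAP65-3: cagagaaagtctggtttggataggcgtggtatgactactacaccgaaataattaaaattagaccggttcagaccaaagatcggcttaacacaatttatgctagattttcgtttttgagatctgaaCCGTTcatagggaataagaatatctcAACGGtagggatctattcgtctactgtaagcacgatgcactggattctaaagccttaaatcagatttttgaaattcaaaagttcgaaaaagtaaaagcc
The 2 cores ended 121 and 95 bases before the start, 1 on each strand. MAP65-3 was at 3.66, 4.44 and 3.77 FPKM in Col-0, at 12.72, 12.61 and 12.07 in cyp71-3 and at 5.08, 5.27 and 5.03 in se-1. The 3 genotypes did not overlap, with Col-0 lowest, se-1 between and cyp71-3 highest. The rise was 3.15-fold in cyp71-3 (1.45 ± 0.07 on the log2 scale, limma adjusted p = 2.29e-08) and 1.30-fold in se-1 (0.31 ± 0.07, limma adjusted p = 0.00481).

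The 8 other MAP65 genes did not share a direction in cyp71-3: 4 were called higher, 2 lower, 1 was not called and 1, MAP65-9, was under the filter. Over all genes, 30.6% were called higher and 63.3% in either direction. MAP65-4 went from 3.26 ± 0.29 to 7.94 ± 0.39 FPKM and MAP65-5 from 1.83 ± 0.30 to 4.16 ± 0.41, and both were called higher. MAP65-6 fell from 30.2 ± 2.41 to 22.1 ± 0.84 FPKM, and MAP65-7 from 20.9 ± 1.02 to 14.7 ± 1.01. MAP65-1 and MAP65-2, which bundle cortical and phragmoplast microtubules, rose 1.30-fold and 1.32-fold in cyp71-3 and 1.22-fold and 1.31-fold in se-1.

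KNOLLE (SYP111) is the syntaxin made for cytokinesis: it sits on vesicles and the cell plate and pairs with other SNARE proteins to fuse them. Its gene lies on chromosome 1 at 2709525 to 2711000, minus strand, with 2 exons, and was the most highly expressed of the 10 in every genotype. Its promoter, chr1:2711001-2711250 on the minus strand, is shown for comparison with HIK, since both have a single core close to the start. Capitals mark AACGG.
KNOLLE: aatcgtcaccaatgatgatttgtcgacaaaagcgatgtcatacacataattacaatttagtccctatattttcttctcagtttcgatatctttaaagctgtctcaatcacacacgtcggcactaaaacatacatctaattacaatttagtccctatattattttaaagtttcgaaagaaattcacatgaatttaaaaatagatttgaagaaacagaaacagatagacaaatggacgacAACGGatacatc
The core ended 8 bases before the start. KNOLLE was at 21.77, 20.24 and 20.77 FPKM in Col-0, at 54.16, 57.72 and 55.68 in cyp71-3 and at 23.83, 21.98 and 23.97 in se-1. The se-1 libraries lay just above those of Col-0, and the cyp71-3 libraries lay far above both. The rise in cyp71-3 was 2.67-fold in mean FPKM, or 1.37 ± 0.05 on the log2 scale (limma adjusted p = 1.37e-09). In se-1 it was 1.11-fold, or 0.15 ± 0.05 (limma adjusted p = 0.0282), a call lost on leaving out Col-0 replicate 2 or 3 or se-1 replicate 1 or 3 (0.0712 to 0.0958) and with only the 6 libraries of the comparison (0.057). KNOLLE overlaps NPQ1, a xanthophyll cycle enzyme gene on the opposite strand, by 464 bases. NPQ1 rose by 0.19 ± 0.05 in cyp71-3, from 22.9 ± 0.80 to 26.3 ± 1.14 FPKM (SD, n = 3), and by 0.15 ± 0.05 in se-1, the same size as the KNOLLE difference there. Its part in the KNOLLE values was not tested.

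Genes that act with KNOLLE in cell plate membrane traffic differed from Col-0 by at most 0.39 on the log2 scale in cyp71-3. There, beside 30.6% of all genes called higher and 63.3% in either direction, 5 of 11 were called higher, 1 lower and 5 not called. Their median was 0.15 on the log2 scale. The largest rise was that of KEU (KEULE), the Sec1/Munc18 protein that binds KNOLLE, from 21.0 ± 0.32 to 27.8 ± 0.93 FPKM, which is 0.39 ± 0.05 on the log2 scale (limma adjusted p = 2.45e-05). KOR1, a membrane endoglucanase of wall building, was the one called lower, by a difference of -0.10 ± 0.03. In se-1, 2 of the 11 were called higher, led by the SNARE gene NPSN11 (10.8 ± 0.96 to 14.8 ± 0.14 FPKM), and 1 lower, the SNARE gene SNAP33 (36.4 ± 0.43 to 33.5 ± 0.62 FPKM). Over all genes, 25.1% were called higher in se-1 and 25.1% lower.

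**Figure D3:**
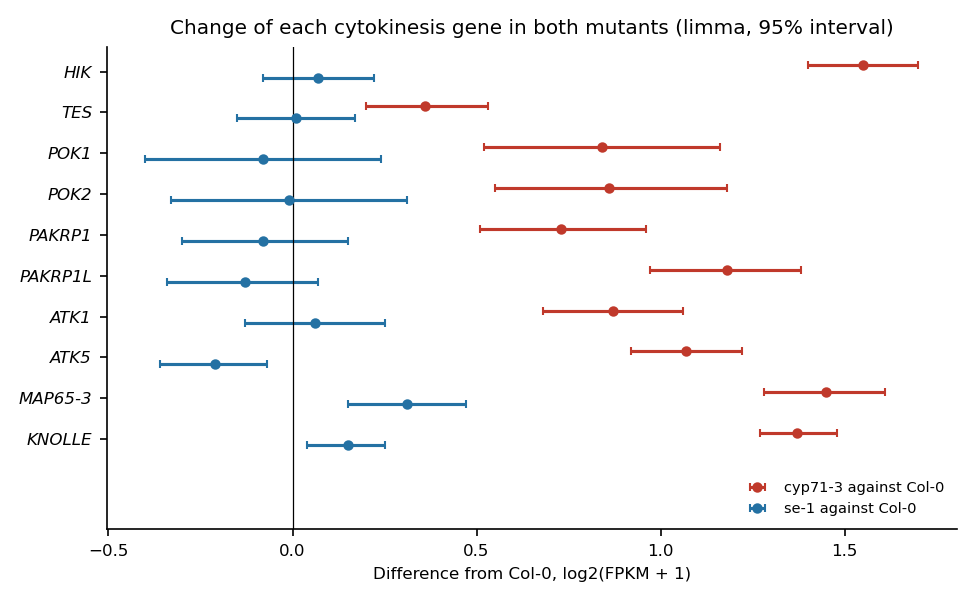
Difference of each cytokinesis gene from Col-0 in both mutants, in log2(FPKM + 1), with the 95% interval from limma. All 10 cyp71-3 intervals lie above 0, and 7 of the 10 se-1 intervals include 0.

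In se-1, then, MAP65-3 and KNOLLE were called higher, ATK5 was called lower and 7 genes were not called, with a median of -0.00 against 0.00 over all genes. Among all genes 50.2% were called in se-1 in either direction, 25.1% higher and 25.1% lower, so 3 calls among 10 genes are no more than the background share. The libraries of MAP65-3 and KNOLLE lay wholly above Col-0, as did those of 28.6% of all genes. The comparisons of both mutants with Col-0 share the Col-0 libraries. Compared with se-1 directly, cyp71-3 was higher for all 10 genes, from 0.36 for TES to 1.48 for HIK, with a median of 1.03. Genes with long transcripts were also higher in this comparison. Their median was 0.11 from 3000 to under 5000 bases and 0.23 from 5000 bases. The part of this length trend in the cytokinesis gene differences was not tested. Of all genes 62.2% were called between the mutants, 30.0% higher in cyp71-3. At least 1 on the log2 scale was reached by 5 of the 10 and by 3.28% of all genes, or with a pseudocount of 0.1 by 8 of the 10 and 4.90%. The mutants' libraries did not overlap for any of the 10, against 32.2% of all genes with cyp71-3 wholly higher.

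By level, KNOLLE led in each genotype, with 20.9 ± 0.78 FPKM for Col-0, 55.9 ± 1.79 for cyp71-3 and 23.3 ± 1.11 for se-1 (SD, n = 3). In Col-0 it was followed by ATK5 (5.50 FPKM), then by TES, HIK, ATK1 and MAP65-3 between 4.39 and 3.96 FPKM, neighbours whose libraries overlapped. PAKRP1L, PAKRP1 and POK2 overlapped in turn from 2.91 to 2.41 FPKM, and POK1 was lowest at 1.72. In cyp71-3 the order was different below KNOLLE: HIK was second at 14.3 FPKM, ATK5 (12.7) and MAP65-3 (12.5) overlapped, and ATK1 (8.06) and PAKRP1L (7.83) overlapped. TES came next at 5.93 FPKM, POK2 (5.20) and PAKRP1 (4.80) overlapped, and POK1 was again lowest at 3.87. In se-1 MAP65-3 was second at 5.13 FPKM, ATK5, HIK, TES and ATK1 overlapped between 4.61 and 4.18, and PAKRP1L, POK2, PAKRP1 and POK1 overlapped between 2.56 and 1.61.

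The balance within the 4 pairs of related kinesins was compared in each library as the difference between their log2(FPKM + 1) values. HIK minus TES was 0.06, 0.04 and -0.23 in Col-0 and 1.16, 1.21 and 1.07 in cyp71-3, a shift of 1.19 towards HIK. PAKRP1 minus PAKRP1L was 0.04, -0.24 and -0.28 in Col-0 and -0.56, -0.58 and -0.67 in cyp71-3, a shift of -0.44, away from PAKRP1. ATK1 minus ATK5 was -0.35, -0.36 and -0.46 in Col-0 and -0.63, -0.56 and -0.59 in cyp71-3, a shift of -0.20. Libraries of these 3 pairs did not overlap between the genotypes. Each gave p = 0.10 in a two-sided exact permutation test, the smallest p that 3 against 3 libraries allow, and 0.27 adjusted over the 8 tests made. POK1 minus POK2 was -0.26, -0.31 and -0.41 in Col-0 and -0.34, -0.32 and -0.39 in cyp71-3, which overlap (shift -0.02, exact permutation p = 0.70). In se-1 the shifts were between -0.07 and 0.27 and no exact p was under 0.20. No stretch of 50 bases was shared between the transcripts of any 2 of the 10 genes.

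**Figure D4:**
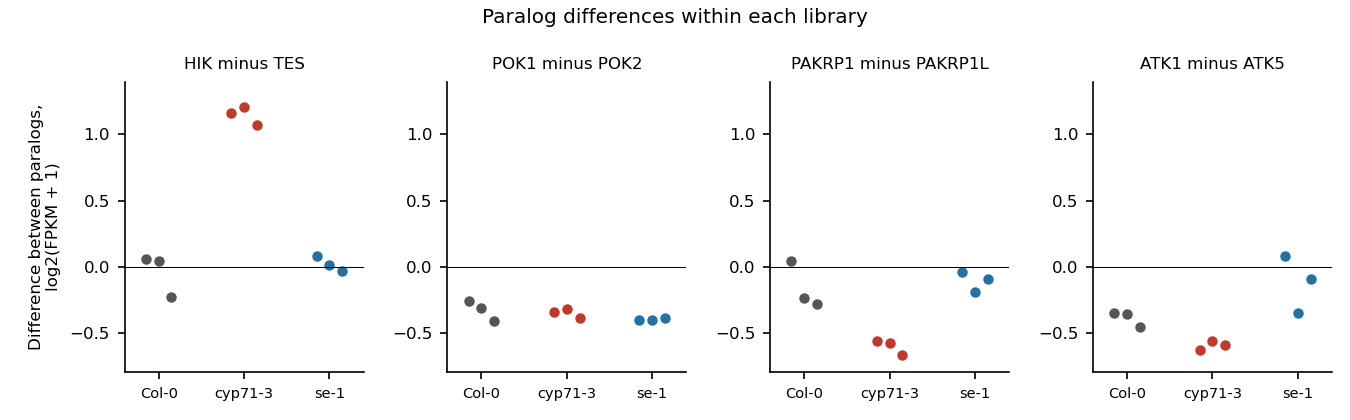
Difference between the log2(FPKM + 1) values of 4 pairs of related kinesins in each library, with 1 point per library by genotype. HIK minus TES lies at 1.07 to 1.21 in cyp71-3 and at -0.23 to 0.06 in Col-0, and POK1 minus POK2 overlaps between these genotypes.

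At least 1 MSA core, AACGG or CCGTT on either strand, was found in 7 of the 10 promoters (70%) and in 5645 of 27443 protein-coding promoters of the same length (20.6%). At least 2 cores were found in 3 of the 10, those of TES, PAKRP1L and MAP65-3, against 3.62% of all promoters. The full MSA consensus, which contains the core, was found in HIK alone of the 10, and in 1.03% of all promoters. Among the genes with a core were HIK and TES, which had the largest and the smallest rise in cyp71-3. A core was also found in 8 of 13 promoters of G2/M cyclin and kinase genes, in 4 of 5 of G2/M transcription regulators and in 10 of 20 of other kinesins. Promoters of cell plate membrane traffic genes had one in 4 of 11, and those of microtubule and division plane factors in 6 of 26. For the MAP kinase cascade it was 1 of 5, and for S phase genes 1 of 11. These are descriptions of letters in a window and are no test of a factor.

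Other genes of mitosis were higher with the cytokinesis genes in cyp71-3. There, 30.6% of all genes were called higher. All 13 listed G2/M cyclin and kinase genes were called higher, with a median of 1.21 on the log2 scale, and CYCB1;1, a B-type cyclin, went from 3.16 ± 0.28 to 14.5 ± 0.99 FPKM (SD, n = 3). Of the regulators of G2/M transcription, 4 of 5 were called higher, with a median of 0.29 on the log2 scale over the list. Among the 4, MYB3R3 and MYB3R5 rose by only 0.28 and 0.29. MYB3R4, an activator that binds the MSA element, went from 3.15 ± 0.15 to 9.28 ± 0.10 FPKM (limma adjusted p = 1.16e-07), and SCL28, a GRAS protein of the G2/M programme, from 4.78 ± 0.27 to 10.7 ± 0.25. MYB3R1 was not called, with 9.76 ± 0.34 FPKM for Col-0 and 10.3 ± 0.43 for cyp71-3. In se-1, 4 of the 13 cyclin and kinase genes were called higher (median 0.16), beside 25.1% of all genes. The largest of these 4 rises was that of CYCB2;3, from 3.27 ± 0.15 to 7.03 ± 0.43 FPKM. MYB3R4 was at 4.80 ± 0.57 in se-1 (limma adjusted p = 0.000555).

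Of 20 other kinesins, 15 were called higher and 2 lower in cyp71-3, beside 30.6% of all genes higher and 63.3% in either direction. The median of the 20 was 0.38 on the log2 scale. The largest rise was in AT4G14330, from 3.26 ± 0.16 to 10.4 ± 0.58 FPKM, and the largest fall in AT4G38950, from 40.2 ± 0.80 to 14.4 ± 1.07 FPKM (limma adjusted p = 2.63e-09). In se-1 AT4G38950 stayed at 39.9 ± 1.76 FPKM, and 17 of the 20 were not called, while 50.2% of all genes were called. The 3 called in se-1 included ATK3, a near relative of ATK1, from 8.69 ± 0.39 to 11.5 ± 1.76 FPKM, and KCA1 (also KAC1), a kinesin-like protein of chloroplast movement, from 53.2 ± 1.23 to 38.7 ± 3.68.

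Of 25 tested microtubule and division plane factors, 16 were called higher and 5 lower in cyp71-3 (median 0.37 on the log2 scale). Among all genes the shares were 30.6% higher and 63.3% in either direction. AUR1, an Aurora kinase of spindle and phragmoplast, went from 5.78 ± 0.34 to 18.7 ± 1.29 FPKM (limma adjusted p = 1.57e-08), and 7.93 ± 0.64 was measured in se-1. RUK (RUNKEL) and TIO (TWO-IN-ONE), kinases or kinase-like proteins of the phragmoplast, rose 2.19-fold and 2.47-fold. TAN1 (TANGLED1), which works with POK1 at the division site, went in opposite directions in the mutants: 3.80 ± 0.21 FPKM for Col-0, 8.68 ± 0.37 for cyp71-3 and 2.81 ± 0.29 for se-1, called in both. EB1B, a microtubule plus-end protein, had the largest called rise of the list in se-1, from 6.86 ± 0.43 to 11.5 ± 0.80 FPKM.

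S phase genes showed another order. Over all genes, 25.1% were called higher in se-1 and 30.6% in cyp71-3. In se-1 all 11 were called higher, with a median of 0.46 on the log2 scale, led by PCNA1, the sliding clamp of replication, from 20.4 ± 1.65 to 33.8 ± 1.77 FPKM (SD, n = 3). In cyp71-3, 8 of the 11 were called higher, with a median of 0.24, led by TSO2, a ribonucleotide reductase subunit, from 68.6 ± 0.74 to 108 ± 1.56 FPKM. Compared directly, 7 of the 11 were lower in cyp71-3 than in se-1 and 1 was higher, whereas all 10 cytokinesis genes were higher in cyp71-3. Between the mutants 62.2% of all genes were called, 30.0% higher in cyp71-3.

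**Figure D5:**
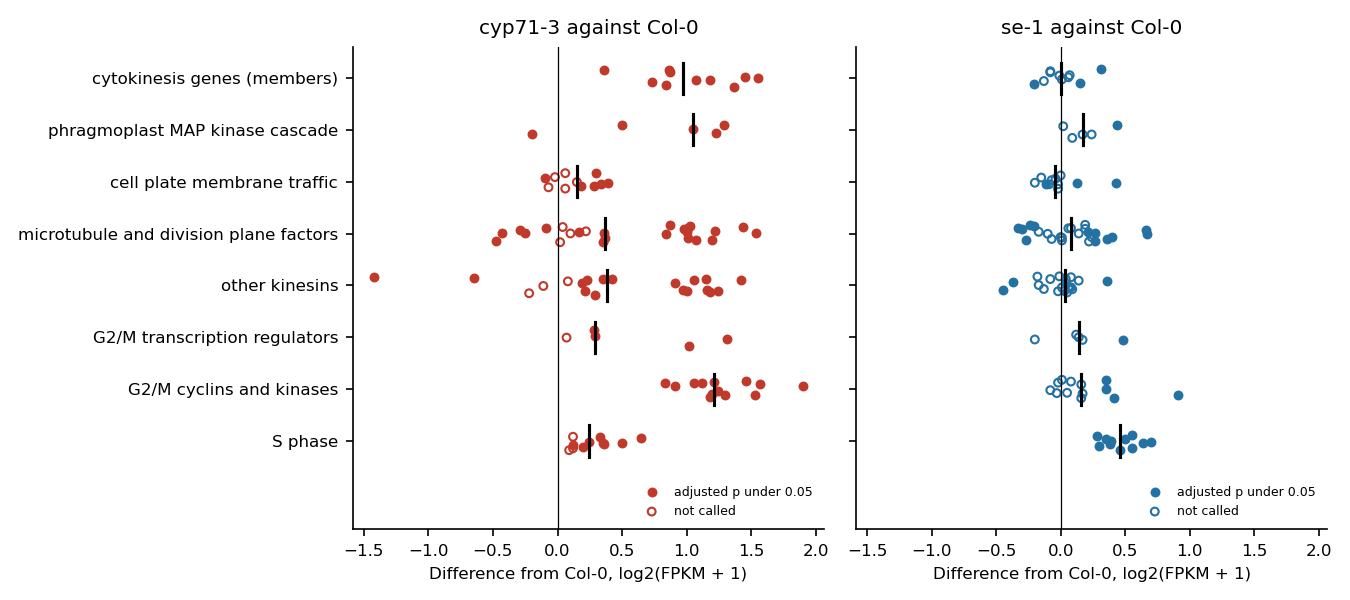
Difference from Col-0, in log2(FPKM + 1), of the cytokinesis genes and 7 other gene lists in both mutants (left, cyp71-3; right, se-1), with 1 point per gene, filled where limma's adjusted p was under 0.05, and a bar at each list's median. The medians of cytokinesis genes and of G2/M cyclins and kinases are 0.97 and 1.21 in cyp71-3 and -0.00 and 0.16 in se-1, while that of S phase genes is 0.24 and 0.46.

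Over the 9 libraries, each cytokinesis gene correlated with the mean profile of the others at a Pearson r of 0.951 (POK2) to 0.991 (HIK). These libraries fall into 3 genotypes, so r mostly records the step between them, and 900 of 19170 other tested genes reached 0.95 with the mean profile of the 10. The 6 most alike were EXPA11, an expansin (r = 0.999), CSLD5, a cellulose synthase-like protein of the cell plate (0.998), AT3G20150, another kinesin (0.998), and TRM7, AT5G63420 and AT4G24610 (0.997 each). CSLD5 went from 9.43 ± 0.48 FPKM in Col-0 to 29.9 ± 0.67 in cyp71-3 and stood at 9.98 ± 1.25 in se-1 (SD, n = 3).

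Markers of tissues that could differ in share between seedlings were read beside these values. Over all genes, 30.6% were called higher in cyp71-3 and 63.3% in either direction. For se-1 the shares were 25.1% higher and 50.2% in either direction. The summed FPKM of 5 shoot meristem genes was 30.3 to 30.7 for Col-0, 31.2 to 33.0 for cyp71-3 and 22.4 to 26.9 for se-1. Of the 3 tested, 2 were called higher and 1 lower in cyp71-3. The meristem gene STM was at 2.79 ± 0.35 FPKM for Col-0, 5.27 ± 0.18 for cyp71-3 and 3.28 ± 0.45 for se-1. CLV1, the one called lower and the largest part of each sum, was at 18.7 ± 0.08, 15.6 ± 0.90 and 13.2 ± 1.30 FPKM in that order. It was called lower in se-1 as well (limma adjusted p = 0.000178). The stem cell genes WUS and CLV3 were under the filter, WUS with no more than 0.14 FPKM in any library and 0 in all of Col-0, and CLV3 at 0 to 0.54 FPKM. For 7 stomatal lineage genes, 3 were called higher and 3 lower in cyp71-3, and the sums were 54.8 to 57.9, 49.6 to 53.0 and 47.9 to 50.6 in that order of genotypes. Of the 6 anther and meiosis genes, DYT1 and MS1, defining genes of the tapetum, were listed at 0 in all libraries and AMS at up to 0.04 FPKM, while DMC1, a meiotic recombinase, went from 6.12 ± 0.46 FPKM in Col-0 to 20.9 ± 0.65 in cyp71-3. The other tested gene of this list, TPD1, which codes for a signal that specifies the tapetum, moved the opposite way, from 31.1 ± 2.85 FPKM in Col-0 to 10.7 ± 0.12 in cyp71-3 (limma adjusted p = 3.24e-08) and 19.0 ± 2.02 in se-1, so that 1 of the 2 was called higher and 1 lower in cyp71-3. The sums of the 6 anther and meiosis genes were 36.0 to 40.8, 32.3 to 33.2 and 23.1 to 29.0 in the same order. The sums of 6 root genes were 901 to 921, 711 to 719 and 717 to 737 FPKM, and most of each sum was PYK10, a root beta-glucosidase (892 ± 9.06, 656 ± 5.06 and 647 ± 11.75 FPKM). The other 4 of 5 tested were called higher in each mutant. Among them WOX5, which marks the root stem cell niche, ranged from 0.37 to 0.71 FPKM in Col-0, from 3.72 to 4.53 in cyp71-3 and from 0.85 to 1.22 in se-1. That was a rise of 1.72 ± 0.13 on the log2 scale in cyp71-3 (limma adjusted p = 5.05e-07) and of 0.41 ± 0.13 in se-1 (0.0207). WOX5 passed the filter only through its cyp71-3 values, so its call there is in part set by the filter. PLT1, the root gene under the filter, did not rise in cyp71-3. It was at 0.410 ± 0.12 FPKM for Col-0, 0.353 ± 0.09 for cyp71-3 and 0.873 ± 0.10 for se-1. The sums of 5 leaf genes were 32511 to 33447, 26858 to 27398 and 27888 to 30994 FPKM, and 4 of the 5 were called lower in each mutant. The part of tissue composition in the cytokinesis gene values was not tested.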

How the data were processed

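The authors deposited 1 table per library with an FPKM value for each gene. The submitters' processing notes name Trim Galore 0.6.7, STAR 2.7.2b, Cuffnorm and Cuffdiff, and TAIR10 as the build. What each tool did, which annotation was used, whether counting used strand and how libraries were scaled is not given in the sources used here. If the values were scaled by the library total, changes in abundant genes would shift all others. The allele cyp71-2 and the small RNA libraries that the design text mentions are not analysed here.

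Genotype differences were estimated with limma 3.58.1 (R 4.3.3) from log2(FPKM + 1) over all 9 libraries, using an intensity trend, with 6 residual degrees of freedom. This covered the 19180 genes averaging at least 1 FPKM. Calls needed a Benjamini-Hochberg adjusted p under 0.05 over all of them, two-sided. FPKM values are not counts, so no count model was run. Promoters and positions came from the TAIR10.1 RefSeq genome and annotation, which matched 32538 of 32823 genes; the files hold no coordinates. Permutation tests used scipy 1.17.1, and figures matplotlib 3.10.9, under Python 3.11.15.

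The 10 genes and the lists of 120 other genes were chosen with earlier results of these data known. The rule for named genes took all 10 genes, the called gene with the largest rise and fall of each other list in each mutant, and the 6 genes most like the mean profile. ANP2, ANP3, the other MAP65 genes, RUK, TIO, SCL28, MYB3R1, MYB3R3, MYB3R5, STM, WUS, CLV3, CLV1, DYT1, MS1, AMS, DMC1, TPD1, PYK10, WOX5 and PLT1 were named after their values were seen. Alternatives were other pseudocounts, filters and scalings, no intensity trend, a replicate block, only the libraries compared, and leaving out each library.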

Additional observations from a re-analysis of the deposited data

How the results depend on the processing

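In cyp71-3 against Col-0 and against se-1, all 10 cytokinesis genes were called in every alternative except a filter of at least 5 FPKM on the mean. Only 5 of them pass that filter, and it gave 5 calls in each comparison. The mean is taken over all 9 libraries. HIK, ATK1 and MAP65-3 averaged below 5 FPKM in Col-0 and pass only because cyp71-3 is higher. Their calls under this filter are in part set by it, so they are no check on the main result. In se-1 against Col-0, where 3 were called, leaving out 1 library gave 1 to 3 calls, with 1 on leaving out Col-0 replicate 3, se-1 replicate 1 or se-1 replicate 3. Only the 6 libraries of that comparison also gave 1. Fewer samples enter these fits. A pseudocount of 0.1 raised the number called higher by at least 1 from 5 to 8 in both cyp71-3 comparisons, a count followed after seeing the data. Counts over all genes stayed within 1.5 times those reported.

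In se-1, 4 of the 7 genes with no call changed sign, none becoming called. TES went from 0.01 to -0.04 under quantile normalization, and with 1 library left out it ranged from -0.02 to 0.05. The same range was -0.24 to 0.09 for POK1, -0.17 to 0.16 for POK2 and -0.02 to 0.14 for ATK1. POK1 minus POK2 in cyp71-3 was 0.05 with a pseudocount of 0.1 and 0.01 with 0.5, and -0.06 to 0.01 with 1 library left out. In se-1, with 1 library left out, HIK minus TES ranged from -0.03 to 0.12 and PAKRP1 minus PAKRP1L from -0.00 to 0.15. The cause was not tested.

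Replicate numbers were not treated as pairs in the main fit. Correlations of same-numbered libraries ran from -0.14 to 0.04. Only between cyp71-3 and se-1 did every library match its own number best, at 0.02 to 0.04. With a replicate block, 10, 3 and 10 of the cytokinesis genes were called in cyp71-3 against Col-0, se-1 against Col-0 and cyp71-3 against se-1, and 11864, 9238 and 11572 of all genes.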
